A study of Mus musculus with 11 samples.

Results

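Gastrocnemius, a mixed-fibre calf muscle, from mice with a myofibre-directed knockout of ZEB1 was compared directly with that from mice with the same kind of knockout of ZEB2, both after 36 h of fasting. The comparison holds 6 of the 11 libraries of the series, 3 labelled ZEB1 knockout and 3 labelled ZEB2 knockout, chosen by their genotype labels and not by any measured value. ZEB1 knockouts carried floxed ZEB1 alleles (ZEB1 flx/flx) with HSACre, and ZEB2 knockouts carried ZEB2 flx/flx with HSACre. HSACre expresses the Cre recombinase from the promoter of the human skeletal actin gene, active in myofibres, so the other cells of the muscle keep their floxed alleles. The 5 other libraries, 2 of ZEB1 flx/flx and 3 of ZEB2 flx/flx mice without Cre and fasted equally long, are the controls of each line. Each library was made from RNA of 2 mice, so every error given here is the spread between pools. Ages, sexes and the strain background of the lines are not given in the labels. Because Cre was present in all 6 libraries and absent from all 5 controls, the comparison between knockouts does not carry a difference in Cre. It does carry any difference between the lines that was there without Cre. Most results below are therefore set beside the same difference between the floxed controls, ZEB1 control minus ZEB2 control. All differences are log2 fold changes of the ZEB1 line minus the ZEB2 line, so that a positive value means a higher level in the ZEB1 line.

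ZEB1 and ZEB2 are closely related transcription factors with a cluster of zinc fingers at each end of the protein. Both bind E-box sequences of the form CACCTG, recruit corepressors and are best known for silencing epithelial genes such as those of cell junctions and cell polarity. Fasting makes muscle break down protein through the ubiquitin-proteasome system and autophagy, and the ubiquitin ligases Trim63 (MuRF1) and Fbxo32 (atrogin-1) are its usual markers.

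Total counts ran from 29.6 to 33.3 M in ZEB1 knockouts, from 35.8 to 46.3 M in ZEB2 knockouts and from 27.3 to 36.0 M in controls. The myofibre genes that mark the labelled tissue were abundant in all 6 knockout libraries, with the skeletal actin gene Acta1 at 22660, 24230 and 24030 CPM in ZEB1 knockouts and 25260, 26700 and 23960 CPM in ZEB2 knockouts. CPM stands for counts scaled to the TMM-adjusted library total throughout. Y-linked genes, which mark male RNA in a pool, summed to 0, 0 and 210 CPM in the 3 ZEB1 knockouts and to 216, 256 and 378 CPM in the 3 ZEB2 knockouts, so the sex make-up of the pools moved with the comparison. The controls gave 0 and 163 CPM in the ZEB1 line and 118, 250 and 0 CPM in the ZEB2 line. A fit with the Y-linked level as a further term is therefore given beside the main results. Levels differed between 1 ZEB1 knockout and 1 ZEB2 knockout library by a median absolute log2 difference of 0.278 to 0.585 over genes, against 0.284 to 0.354 between ZEB1 knockout pools, 0.165 to 0.336 between ZEB2 knockout pools and 0.217 to 0.370 between controls of both lines.

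The edgeR quasi-likelihood test called 29 of 15416 genes between the knockouts at a Benjamini-Hochberg adjusted p of 0.05, which is 0.188% of genes tested. Of these 23 were higher in ZEB1 knockouts (0.149%) and 6 were higher in ZEB2 knockouts (0.0389%). They comprised 22 protein-coding genes, 6 pseudogenes and 1 long noncoding RNA. An unadjusted p under 0.05 was reached by 3380 genes (21.9%), DESeq2 called 895 of the 13021 genes to which it gave an adjusted p (6.87%), and limma-voom called 27 (0.175%). DESeq2 thus called far more genes than either other tool, and "called" means edgeR below unless DESeq2 is named. The edgeR count also rested on single libraries, with 2 calls without ZEB2 knockout 1, 4 without ZEB2 knockout 2 or 3, 17 and 19 without ZEB1 knockout 1 or 3, and 55, 52 and 19 without ZEB1 control 2 or 3 or ZEB2 control 2. With the Y-linked term 8 genes were called, 7 of them among the 29. The 3 libraries of one knockout lay outside the range of the 3 of the other for 4258 genes (27.6%), 2036 of them higher in ZEB1 knockouts (13.2%) and 2222 lower (14.4%).

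Between the floxed controls the same test called 3 genes (0.0195%), all pseudogenes and all higher in the ZEB1 line. Over all genes tested the median absolute log2 difference was 0.304 between knockouts and 0.170 between controls, and 1247 against 608 genes differed by at least 1 on the log2 scale. Across genes, which are not independent, the knockout and control differences correlated weakly (Pearson r = 0.223, Spearman rho = 0.022 over 15416 genes, no library shared) and had the same sign in 7701 of them. Among the 29 called genes 25 had the same sign in the controls, and 12 had an unadjusted p under 0.05 there (3.32% of all genes), 11 of them in the same direction. The 6 pseudogenes differed by a median of 3.71 between knockouts and 3.80 between controls. Among them Gm7887 and Gm5503 passed the filter on low counts only through the ZEB1 line. The 22 protein-coding genes differed by a median absolute value of 1.33 between knockouts and 0.217 between controls. A test of the difference of differences, knockout difference minus control difference, called 0 genes with edgeR, 0 with limma-voom and 17 with DESeq2 (0.113% of 15110), and 1427 genes had an unadjusted p under 0.05 (9.26%). The 17 called by DESeq2 included Zeb1, Cdc42bpg, Spint2, Noct, Tspan5, Nes, Myh10 and Eif4ebp3.

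**Figure D1:**
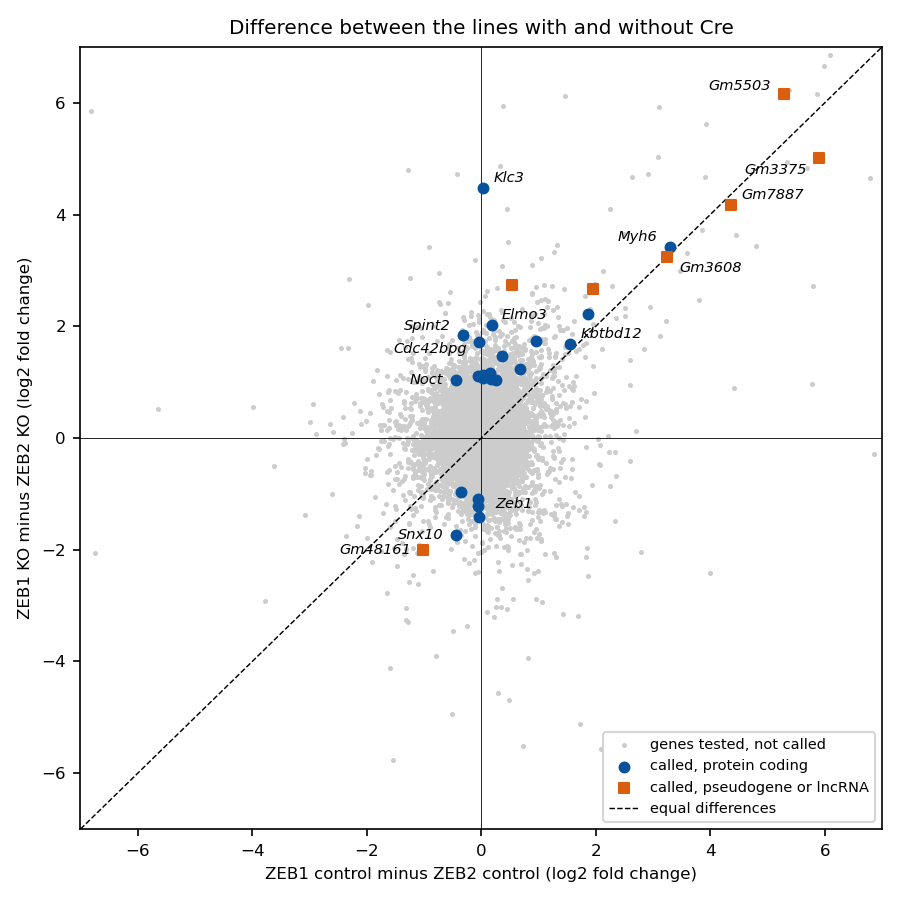
Each point is 1 of the genes tested, with the log2 difference between floxed controls on the horizontal axis and between knockouts on the vertical axis (21 genes lie outside the axis limit of 7). Of the genes called between knockouts, Kbtbd12 and Myh6 lie near the dashed line of equal differences, Cdc42bpg, Klc3 and Zeb1 lie near 0 between controls, Gm48161 and Snx10 lie in between, and Noct has the opposite sign in the controls.

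Zeb1 itself was called and Zeb2 was not. Zeb1 (ENSMUSG00000024238.15, GRCm38 chromosome 18 from 5591860 to 5775467 on the plus strand) stood at 28.4, 28.6 and 30.4 CPM in ZEB1 knockouts and 67.2, 60.2 and 75.99 CPM in ZEB2 knockouts. The groups did not overlap, and the controls, at 41.2 and 51.1 CPM in the ZEB1 line and 47.7, 52.1 and 43.7 CPM in the ZEB2 line, lay between them. The difference between knockouts was -1.22 (SE 0.14, edgeR adjusted p = 0.00641) and that between controls -0.051 with an SE of 0.15. Zeb1 was thus both below its control level in the ZEB1 knockouts and above it in the ZEB2 knockouts, and the direct comparison adds these distances. Knockout minus control was -0.67 in the ZEB1 line (edgeR adjusted p = 0.800) and 0.50 in the ZEB2 line (edgeR adjusted p = 0.0787), so neither passed alone. The difference of differences was -1.17 (SE 0.20, adjusted p = 0.350 in edgeR, and 0.00212 in DESeq2). With the Y-linked term the difference between knockouts was -1.07 (edgeR, adjusted p = 0.0373).

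Zeb2 (ENSMUSG00000026872.18, GRCm38 chromosome 2 from 44983632 to 45117395 on the minus strand) stood at 21.8, 19.7 and 20.7 CPM in ZEB1 knockouts and 18.3, 14.4 and 17.6 CPM in ZEB2 knockouts. The groups did not overlap either, but the difference was 0.30 (SE 0.13, edgeR adjusted p = 0.197). Between controls Zeb2 differed the other way, by -0.30 with an SE of 0.14 (20.8 and 18.7 CPM in the ZEB1 line, 24.1, 23.1 and 25.8 CPM in the ZEB2 line), so the difference of differences was 0.60 (SE 0.19, edgeR adjusted p = 0.516). In whole muscle, fewer cells expressing a gene and less RNA per cell cannot be told apart, and the counts include transcripts of cells without Cre activity and exons outside the floxed part.

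The called genes can be sorted by which knockout departs from the other 8 libraries. In 5 of the 29 the ZEB1 knockouts lay beyond the other 8 libraries on one side and the ZEB2 knockouts beyond the other 8 on the opposite side (Cdc42bpg, Dnajb5, Zeb1, Tspan5 and Wwtr1). In 7 only the ZEB1 knockouts lay apart in this way, in 9 only the ZEB2 knockouts, and in 8 neither. Over all genes tested the ZEB1 knockouts lay above the other 8 libraries for 133 genes (0.863%) and below them for 50 (0.324%), whereas the ZEB2 knockouts lay above for 1388 (9%) and below for 908 (5.89%). Both knockout groups have 3 libraries, but their pools also differed in sex make-up and depth. Y-linked genes summed to 0, 0 and 210 CPM in ZEB1 knockouts and to 216, 256 and 378 CPM in ZEB2 knockouts. Total counts were 31.2, 29.6 and 33.3 M in ZEB1 knockouts and 35.8, 46.3 and 39.2 M in ZEB2 knockouts. The part of these differences in the shares was not tested. This sorting uses the same counts as the test and is a description of the called genes.

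Cdc42bpg, a kinase that binds the small GTPase Cdc42 (GRCm38 chromosome 19 from 6306456 to 6325652 on the plus strand), stood at 15.2, 16.9 and 13.8 CPM in ZEB1 knockouts and 5.11, 4.07 and 4.79 CPM in ZEB2 knockouts. Every ZEB1 knockout exceeded every ZEB2 knockout, and the 5 controls lay between 5.67 and 6.86 CPM. Its difference was 1.72 (SE 0.15, edgeR adjusted p = 0.00146), against -0.035 with an SE of 0.17 between controls. It had the smallest p of the difference of differences (1.75, SE 0.23, adjusted p = 0.139 in edgeR, and 3.72e-07 in DESeq2). Cdc42bpg and the pseudogene Gm3375 were the only genes called in all 21 settings tried, and with the Y-linked term its difference was 1.57 (adjusted p = 0.0137).

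Dnajb5, a co-chaperone of heat shock protein Hsp70, stood at 167, 213 and 178 CPM in ZEB1 knockouts and 100.2, 93.6 and 74.4 CPM in ZEB2 knockouts (log2 difference 1.06, SE 0.17, edgeR adjusted p = 0.0358). Its controls overlapped, with a difference of 0.17 and levels of 166 and 132 CPM in the ZEB1 line and 116, 142 and 141 CPM in the ZEB2 line.

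Tspan5, a tetraspanin membrane protein that partners the protease ADAM10, went the other way, with 3.18, 2.93 and 3.08 CPM in ZEB1 knockouts and 6.87, 7.43 and 10.2 CPM in ZEB2 knockouts (log2 difference -1.42, SE 0.19, edgeR adjusted p = 0.0205). Wwtr1, which encodes the Hippo pathway coactivator TAZ, stood at 34.03, 32.4 and 35.6 CPM in ZEB1 knockouts and 57.4, 64.6 and 94.2 CPM in ZEB2 knockouts (log2 difference -1.08, SE 0.18, edgeR adjusted p = 0.0443). For both genes the 5 controls lay between the knockout groups, with differences of -0.04 for Tspan5 and -0.064 for Wwtr1. With the Y-linked term Dnajb5, Tspan5 and Wwtr1 were no longer called (adjusted p from 0.180 to 0.270), with differences of 0.93, -1.29 and -0.98.

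In the group in which only the ZEB1 knockouts stood apart, levels were low, at most 14.4 CPM in any knockout library. Spint2, a membrane inhibitor of serine proteases and a gene of epithelia (GRCm38 chromosome 7 from 29256323 to 29281912 on the minus strand), stood at 3.90, 6.54 and 7.02 CPM in ZEB1 knockouts and 1.49, 1.86 and 1.46 CPM in ZEB2 knockouts (log2 difference 1.85, SE 0.26, edgeR adjusted p = 0.0205). All 5 controls lay between 1.43 and 2.32 CPM, with a difference of -0.32. Hpn, which encodes the membrane serine protease hepsin (GRCm38 chromosome 7 from 31098725 to 31115290 on the minus strand), stood at 7.08, 6.60 and 7.89 CPM in ZEB1 knockouts and 3.29, 3.57 and 2.79 CPM in ZEB2 knockouts (log2 difference 1.16, SE 0.17, edgeR adjusted p = 0.0231). Its control difference was 0.15 in the same direction.

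Klc3, a light chain of the motor protein kinesin (GRCm38 chromosome 7 from 19394437 to 19404104 on the minus strand), was nearly absent outside the ZEB1 knockouts, with 1.49, 1.26 and 2.21 CPM in these and 0.0299, 0.0690 and 0.113 CPM in ZEB2 knockouts (log2 difference 4.47, SE 0.56, edgeR adjusted p = 0.0153). No control library exceeded 0.186 CPM. Elmo3, a protein of cell engulfment and Rac signalling (GRCm38 chromosome 8 from 105305601 to 105310760 on the plus strand), stood at 2.73, 4.35 and 3.74 CPM in ZEB1 knockouts and 0.776, 0.943 and 0.929 CPM in ZEB2 knockouts (log2 difference 2.02, SE 0.28, edgeR adjusted p = 0.0205). Its controls overlapped between 0.866 and 1.58 CPM. Klc3 passed the filter on low counts only through the ZEB1 knockouts, so a difference was built into its selection, and DESeq2 gave it no adjusted p.

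Noct, which encodes nocturnin, a clock-controlled enzyme related to deadenylases (GRCm38 chromosome 3 from 51224447 to 51251644 on the plus strand), stood at 12.9, 14.4 and 13.03 CPM in ZEB1 knockouts and 6.54, 6.83 and 6.17 CPM in ZEB2 knockouts (log2 difference 1.04, SE 0.16, edgeR adjusted p = 0.0320). It was the only called gene whose controls lay apart in the opposite direction, with 6.94 and 6.51 CPM in the ZEB1 line and 7.36, 9.21 and 10.9 CPM in the ZEB2 line. The control difference was -0.45 with an SE of 0.18. The difference of differences was 1.49 (SE 0.24, adjusted p = 0.239 in edgeR, and 0.000364 in DESeq2). The unnamed pseudogene Gm5898 (2.74) and the noncoding RNA Gm48161 (-1.995) completed this group of 7. With the Y-linked term only Klc3 of the 7 was called (4.91, adjusted p = 0.0232), while Spint2 gave 1.91 (adjusted p = 0.0958), Hpn 1.28 (0.0723), Elmo3 1.94 (0.130) and Noct 0.91 (0.202).

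**Figure D2:**
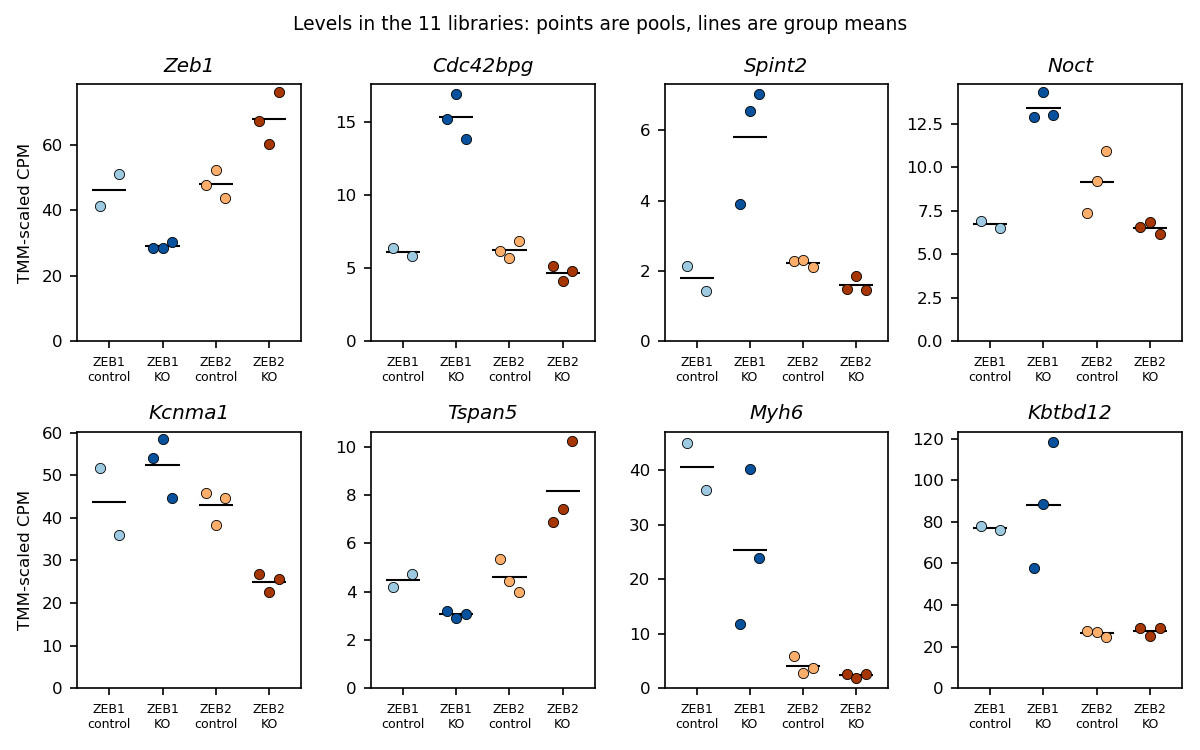
TMM-scaled CPM of 8 called genes in the 11 libraries, 1 panel per gene with its own axis starting at 0; points are pools and lines group means. Cdc42bpg, Spint2 and Noct are highest in the 3 ZEB1 knockouts, Kcnma1 is lowest in the 3 ZEB2 knockouts, Zeb1 and Tspan5 are low in one knockout and high in the other, and Myh6 and Kbtbd12 separate the lines with and without Cre.

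The promoters of the genes that were called and highest in the ZEB1 knockouts are shown because CACCTG is the sequence that ZEB proteins bind. They run from 250 bases before to 50 bases after the annotated start (RefSeq, GRCm38.p6), 5′ to 3′ along the gene, with every CACCTG on either strand in capitals (it reads CAGGTG on the other strand). Of the 8 genes called higher with all ZEB1 knockouts above the other 8 libraries, 5 matched the promoter table, and 4 of these held the motif in at least 1 of their listed promoters. They were Spint2 (chr7:29281928-29282227, minus strand), Hpn at the first of its 2 listed starts (chr7:31115277-31115576, minus strand), Klc3 (chr7:19404055-19404354, minus strand) and Noct (chr3:51224197-51224496, plus strand).
Spint2: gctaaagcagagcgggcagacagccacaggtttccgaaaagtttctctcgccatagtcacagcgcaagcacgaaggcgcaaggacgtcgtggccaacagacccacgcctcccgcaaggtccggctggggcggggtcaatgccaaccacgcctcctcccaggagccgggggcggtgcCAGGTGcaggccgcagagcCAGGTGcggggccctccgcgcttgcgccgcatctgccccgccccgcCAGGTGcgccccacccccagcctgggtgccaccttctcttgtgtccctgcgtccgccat
Hpn: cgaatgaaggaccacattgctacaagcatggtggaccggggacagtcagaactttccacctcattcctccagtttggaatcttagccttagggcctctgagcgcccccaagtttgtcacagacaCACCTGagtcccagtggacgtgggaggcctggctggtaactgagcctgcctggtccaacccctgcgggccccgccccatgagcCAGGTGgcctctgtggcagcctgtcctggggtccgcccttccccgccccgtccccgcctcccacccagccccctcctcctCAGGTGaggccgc
Klc3: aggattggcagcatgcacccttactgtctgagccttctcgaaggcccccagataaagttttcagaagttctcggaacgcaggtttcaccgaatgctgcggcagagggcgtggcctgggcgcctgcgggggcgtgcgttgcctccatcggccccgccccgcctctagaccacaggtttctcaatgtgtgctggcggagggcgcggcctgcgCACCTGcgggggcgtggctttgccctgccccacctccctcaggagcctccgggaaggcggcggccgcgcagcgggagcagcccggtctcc
Noct: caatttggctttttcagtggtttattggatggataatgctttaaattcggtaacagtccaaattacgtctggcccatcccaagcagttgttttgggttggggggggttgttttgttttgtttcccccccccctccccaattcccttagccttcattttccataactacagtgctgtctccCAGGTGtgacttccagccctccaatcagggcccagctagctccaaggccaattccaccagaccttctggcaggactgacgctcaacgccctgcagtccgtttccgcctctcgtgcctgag
Spint2 and Hpn each held 3 copies, and Klc3 and Noct 1 each. Dnajb5 matched and held none, and Cdc42bpg, Elmo3 and Gm5898 were not matched. CACCTG was present in 22.6% of the 27025 genes with a promoter in the table, in 20.8% of the 11179 tested genes that matched and in 6 of the 18 called genes that matched (33.3%). Besides the 4 printed, the 6 were Kbtbd12, which differed by a similar amount between controls, and Snx10, which was higher in ZEB2 knockouts. Among all 133 tested genes whose ZEB1 knockouts lay above the other 8 libraries, 94 matched and 37 held the motif (39.4%). That set was chosen by its high ZEB1 knockout levels and includes Klc3, which passed the filter on low counts only through the ZEB1 knockouts. No such share was taken for genes whose ZEB2 knockouts lay above the other 8. The motif is a form of the E-box CANNTG, which Snail-family and basic helix-loop-helix factors also bind, and a match only describes the sequence.

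Genes in which only the ZEB2 knockouts stood apart included a channel, enzymes and membrane proteins. Kcnma1, the pore subunit of the large-conductance calcium-activated potassium channel, stood at 54.1, 58.4 and 44.8 CPM in ZEB1 knockouts and 26.8, 22.6 and 25.6 CPM in ZEB2 knockouts (log2 difference 1.07, SE 0.16, edgeR adjusted p = 0.0320). The controls overlapped, with 51.6 and 35.99 CPM in the ZEB1 line and 45.9, 38.4 and 44.7 CPM in the ZEB2 line, a difference of 0.027. Shisa2, a membrane protein of the endoplasmic reticulum, showed the same layout at 63.4, 67.6 and 67.1 CPM in ZEB1 knockouts and 27.8, 37.2 and 27.03 CPM in ZEB2 knockouts (log2 difference 1.10, SE 0.19, edgeR adjusted p = 0.0493), with a control difference of -0.056.

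Gpt, the alanine aminotransferase that links amino acid breakdown to alanine release, stood at 27.8, 20.5 and 24.8 CPM in ZEB1 knockouts and 12.5, 10.9 and 9.88 CPM in ZEB2 knockouts (log2 difference 1.13, SE 0.17, edgeR adjusted p = 0.0320), and differed by 0.039 between controls. Ppt1, a lysosomal enzyme that removes palmitate from proteins, stood at 12.6, 20.6 and 12.9 CPM in ZEB1 knockouts and 5.94, 5.94 and 4.79 CPM in ZEB2 knockouts (log2 difference 1.47, SE 0.20, edgeR adjusted p = 0.0205). Hsd17b7, an enzyme of cholesterol synthesis, stood at 5.75, 7.40 and 6.50 CPM in ZEB1 knockouts and 3.19, 3.06 and 3.35 CPM in ZEB2 knockouts (log2 difference 1.03, SE 0.17, edgeR adjusted p = 0.0445). The controls of Ppt1 (0.37) and Hsd17b7 (0.25) lay apart in the same direction by a smaller amount. The unnamed coding gene 2310039H08Rik was higher in ZEB2 knockouts (-0.96 between knockouts, -0.35 between controls). None of these 6 genes was called with the Y-linked term, where their differences were 0.84 for Kcnma1, 0.92 for Shisa2, 1.15 for Gpt, 1.28 for Ppt1, 0.93 for Hsd17b7 and -0.78 for 2310039H08Rik (adjusted p from 0.135 to 0.270).

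For several called genes a difference of similar size was already present between the floxed controls. Myh6, the alpha cardiac myosin heavy chain, stood at 11.9, 40.3 and 23.8 CPM in ZEB1 knockouts and 2.57, 1.86 and 2.67 CPM in ZEB2 knockouts (log2 difference 3.42, SE 0.43, edgeR adjusted p = 0.0171). The controls stood at 44.9 and 36.5 CPM in the ZEB1 line and 5.84, 2.90 and 3.69 CPM in the ZEB2 line, a difference of 3.30 (SE 0.44, edgeR adjusted p = 0.0556). The lines did not overlap in either setting, and the difference of differences was 0.13 with an SE of 0.59. Kbtbd12, a Kelch-repeat protein of the BTB family of ligase adaptors (GRCm38 chromosome 6 from 88545114 to 88637950 on the minus strand), stood at 57.9, 88.4 and 119 CPM in ZEB1 knockouts and 28.8, 25.03 and 29.1 CPM in ZEB2 knockouts (log2 difference 1.68, SE 0.21, edgeR adjusted p = 0.0159). Its controls stood at 78.2 and 76.2 CPM in the ZEB1 line and 27.4, 26.9 and 24.8 CPM in the ZEB2 line, a difference of 1.55 with an SE of 0.23.

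Gimap6, a member of the immunity-associated GTPase family (GRCm38 chromosome 6 from 48701582 to 48708225 on the minus strand), stood at 20.3, 31.8 and 24.9 CPM in ZEB1 knockouts and 11.3, 11.6 and 9.77 CPM in ZEB2 knockouts (log2 difference 1.24, SE 0.16, edgeR adjusted p = 0.0159), against a control difference of 0.68 with an SE of 0.17. Osbpl3, a lipid-binding protein at membrane contacts (GRCm38 chromosome 6 from 50293330 to 50456201 on the minus strand), stood at 6.59, 8.08 and 4.59 CPM in ZEB1 knockouts and 1.85, 1.86 and 2.03 CPM in ZEB2 knockouts (log2 difference 1.74, SE 0.25, edgeR adjusted p = 0.0258), against a control difference of 0.95 with an SE of 0.28. Both differed in the same direction with and without Cre, by a larger amount with it, and with Myh6 they complete the 9 genes in which only the ZEB2 knockouts lay beyond the other 8 libraries. With the Y-linked term Kbtbd12 was called (1.87, adjusted p = 0.0203), and Myh6 (3.35, 0.111), Gimap6 (1.21, 0.0958) and Osbpl3 (1.63, 0.202) were not. Snx10, an endosomal sorting nexin (GRCm38 chromosome 6 from 51523901 to 51590679 on the plus strand), stood at 5.20, 4.12 and 6.65 CPM in ZEB1 knockouts and 14.8, 16.5 and 21.96 CPM in ZEB2 knockouts (log2 difference -1.74, SE 0.29, edgeR adjusted p = 0.0493). The control difference of Snx10 was -0.44 with an SE of 0.32. Neither knockout lay beyond all other libraries for Snx10, since 1 ZEB2 control reached 15.4 CPM.

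The 3 pseudogenes called between controls were also called between knockouts. Gm3375 stood at 14.7, 16.7 and 16.2 CPM in ZEB1 knockouts and 0.299, 0.529 and 0.619 CPM in ZEB2 knockouts, a difference of 5.02 against 5.90 between controls. Gm7887 differed by 4.17 between knockouts and 4.37 between controls, and Gm5503 by 6.15 and 5.28. No ZEB2-line library exceeded 0.242 CPM for Gm7887 or 0.0928 CPM for Gm5503. These 2 genes passed the filter on low counts only through the ZEB1 line, so a difference was built into their selection. Counts of pseudogenes share reads with their near-identical parent genes and are uncertain. Of the 10 genes named for the control comparison, 8 had the same sign between knockouts and 2 the opposite. Those of similar size in both were Myh6, Kbtbd12, Tob2, an antiproliferative protein (1.05 between controls, 1.08 between knockouts), and Mrpl35, a protein of the mitochondrial ribosome (-0.69 and -0.74). Neither of the last 2 passed the test in either comparison (edgeR, adjusted p = 0.571 and 0.0775 for Tob2, 0.9999 and 0.0809 for Mrpl35). Chac1 (1.58 between controls, 0.88 between knockouts), Lrrc14 (-0.63, -0.21), Banp (-1.07, -0.16) and Gpr4 (-0.82, -0.011) differed less between knockouts, and Pcdhgc4 (0.88, -0.078) and Nes changed sign.

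Nes, the intermediate filament nestin, and Myh10, a nonmuscle myosin heavy chain, were among the genes with the smallest p for the difference of differences, and their lines changed order. Nes stood at 19.1, 21.99 and 25.2 CPM in ZEB1 knockouts and 16.6, 17.4 and 12.9 CPM in ZEB2 knockouts, against 21.4 and 18.9 CPM in ZEB1 controls and 30.2, 31.6 and 42.4 CPM in ZEB2 controls. Its difference was 0.50 between knockouts and -0.79 between controls. Myh10 gave 0.58 and -0.61. Neither passed the edgeR test of the difference of differences (adjusted p = 0.516 for both), but DESeq2 called both (adjusted p = 0.0223 for Nes and 0.0244 for Myh10).

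Genes of the proteasome, the complex that degrades ubiquitinated proteins, were lower in ZEB1 than in ZEB2 knockouts for 33 of 36 members, with a median of -0.74, against 0.046 over all genes tested and -0.07 for the same list between controls. In 33 of the 36 the knockout groups did not overlap in that direction (background 14.4%), but the members share the variation of a pool and are not independent. List sums were 5729, 4264 and 6943 CPM in ZEB1 knockouts and 8895, 8726 and 11340 CPM in ZEB2 knockouts. The 2 ZEB1 controls were far apart, at 3878 and 6973 CPM, against 5474, 6810 and 4489 CPM in ZEB2 controls. None passed edgeR, and DESeq2 called 20 lower and 0 higher (background 3.62% lower). Psmb5, the subunit with chymotrypsin-like activity, stood at 74.2, 63.3 and 97.3 CPM in ZEB1 knockouts and 152, 165 and 204 CPM in ZEB2 knockouts, a difference of -1.15 (SE 0.25, adjusted p = 0.108 in edgeR, and 0.00194 in DESeq2). Psmb4 gave -0.99, Psmd13 -0.84 and Psmb7 -0.72. The immunoproteasome activators Psme1 (0.0097) and Psme2 (0.21) and the regulator Nfe2l1 (0.17) were the 3 members not lower. The list median ran from -0.99 to -0.60 when single libraries were left out and was -0.37 with the Y-linked term.

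Atrophy genes leaned the same way with more spread. Of 31 atrophy ubiquitin ligases and FoxO genes 23 were lower in ZEB1 knockouts, with a median of -0.42 against 0.14 between controls, and none passed edgeR. The median ran from -0.74 to -0.33 over omissions of 1 library and was -0.10 with the Y-linked term. List sums were 22170, 10830 and 17910 CPM in ZEB1 knockouts and 23200, 22930 and 32040 CPM in ZEB2 knockouts. The 2 ZEB1 controls were again far apart, at 9464 and 19670 CPM, against 13620, 16460 and 7630 CPM in ZEB2 controls. Trim63 stood at 4710, 925 and 2854 CPM in ZEB1 knockouts and 5157, 4973 and 7378 CPM in ZEB2 knockouts, so the 3 ZEB1 pools spanned a wide range and the groups did not overlap, with a difference of -1.04 (SE 0.71, edgeR adjusted p = 0.396). Fbxo32 stood at 2456, 1175 and 2335 CPM in ZEB1 knockouts and 3300, 3330 and 5024 CPM in ZEB2 knockouts, a difference of -0.97 with an SE of 0.46. The 2 members that DESeq2 called went the other way (background 3.25% higher). Asb2, a ligase adaptor that targets filamins, stood at 505, 562 and 455 CPM in ZEB1 knockouts and 252, 279 and 199.8 CPM in ZEB2 knockouts (1.06, DESeq2 adjusted p = 0.00519). Fbxo40, a muscle ligase of insulin receptor substrate, gave 0.86 (DESeq2 adjusted p = 0.00360).

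Autophagy genes were lower in ZEB1 knockouts for 29 of 32 (median -0.33, controls 0.091), and DESeq2 called 3 lower (background 3.62%). The median was -0.18 with the Y-linked term. List sums were 7148, 3858 and 5391 CPM in ZEB1 knockouts and 8126, 8086 and 11060 CPM in ZEB2 knockouts. They were 3479 and 6570 CPM in ZEB1 controls and 5103, 5555 and 3385 CPM in ZEB2 controls. Sqstm1, the autophagy receptor p62, stood at 1056, 614 and 1198 CPM in ZEB1 knockouts and 1840, 1734 and 2429 CPM in ZEB2 knockouts, a difference of -1.07 (SE 0.35, adjusted p = 0.152 in edgeR, and 0.0391 in DESeq2). Of the lysosomal genes 14 were higher and 16 lower (median -0.018, controls 0.053). Their knockout groups did not overlap for 9 lower and 3 higher members (background 14.4% and 13.2%), and DESeq2 called 2 lower and 0 higher. Glucocorticoid response genes were lower in ZEB1 knockouts for 17 of 20 (median -0.60) and higher in ZEB1 controls for 19 of the 20 (median 0.72). The 2 ZEB1 controls were far apart, with list sums of 1408 and 4859 CPM, against 1561, 2554 and 1448 CPM in ZEB2 controls. The sum was thus high in only 1 of the 2 ZEB1 controls. No member of the glucocorticoid list passed either tool. Its median between knockouts ran from -1.10 to -0.28 over omissions of 1 library and was -0.13 with the Y-linked term.

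Cytosolic ribosomal protein genes differed by a smaller and very even amount. In 76 of 77 the level was lower in ZEB1 knockouts, with a median of -0.29 against 0.021 between controls, and in 73 the groups did not overlap in that direction (background 14.4%). DESeq2 called 35 lower (background 3.62%) and edgeR none. Summed over the list they took 20090, 20260 and 19780 CPM in ZEB1 knockouts and 26330, 24640 and 23680 CPM in ZEB2 knockouts. The list median kept its size over omissions (-0.34 to -0.26) and with the Y-linked term (-0.26). Translation factors were lower for 28 of 30 (median -0.30, controls -0.056, and -0.18 between knockouts with the Y-linked term). Eif4ebp3, an inhibitor of cap-dependent translation, was lower in ZEB1 knockouts without being called, with 1.01, 0.740 and 1.04 CPM in ZEB1 knockouts and 3.10, 3.40 and 2.45 CPM in ZEB2 knockouts (log2 difference -1.68, SE 0.31, edgeR adjusted p = 0.0775).

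**Figure D3:**
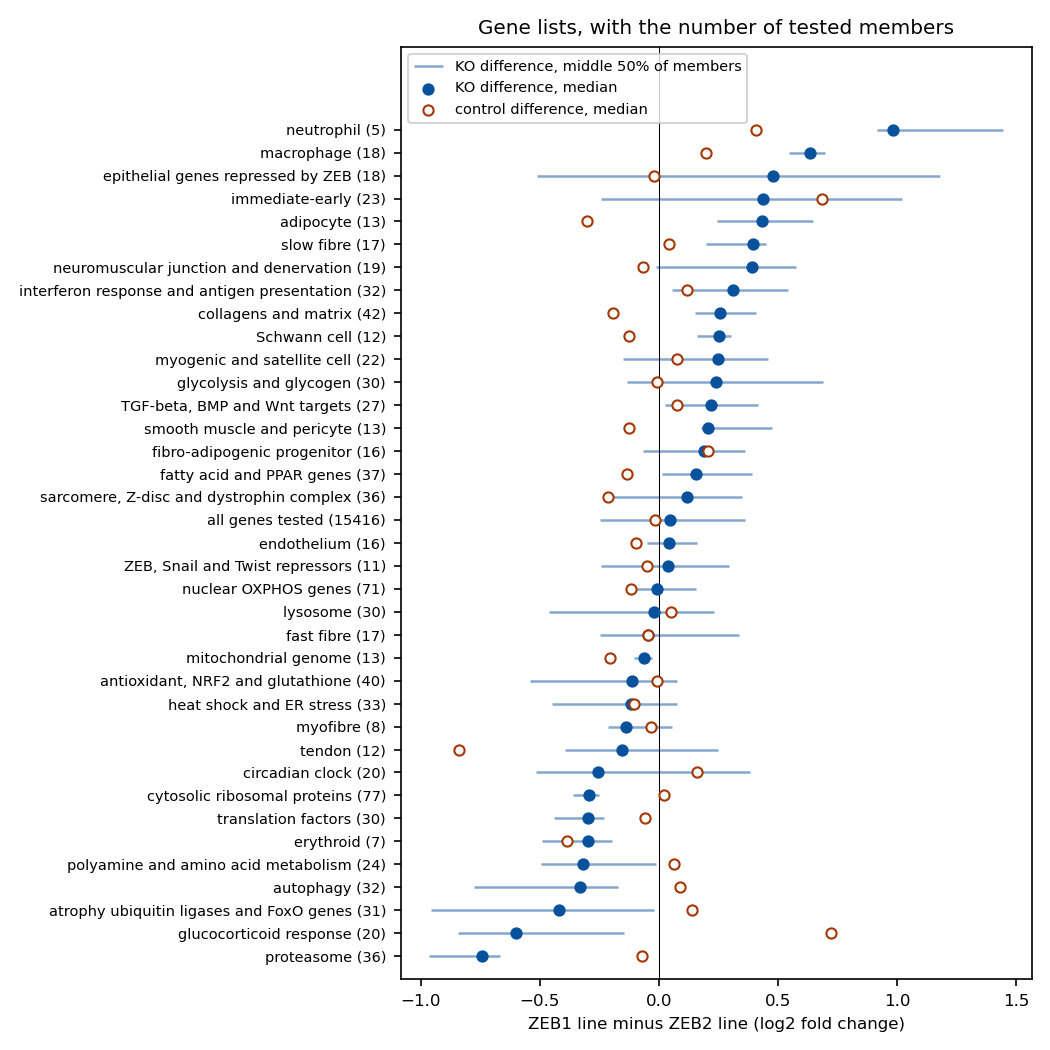
Median log2 difference of each gene list between knockouts (filled circles, with a line for the middle 50% of members) and between floxed controls (open circles), with the number of tested members in brackets and lists of at least 5 drawn. The sex-linked list (median -1.48 between knockouts) is not plotted. Of the lists drawn, proteasome, glucocorticoid, atrophy and autophagy genes lie lowest between knockouts, macrophage and neutrophil markers lie highest, and the ribosomal protein line is among the shortest.

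Of 30 glycolysis and glycogen genes 20 were higher in ZEB1 knockouts (66.7%, against 54.3% of all genes tested), with a median of 0.24, -0.007 between controls and 0.15 between knockouts with the Y-linked term. DESeq2 called 6 higher and 0 lower (background 3.25% higher). Gys1, muscle glycogen synthase, stood at 451, 309 and 396 CPM in ZEB1 knockouts and 228, 224 and 221 CPM in ZEB2 knockouts, a difference of 0.78 (SE 0.16, adjusted p = 0.0926 in edgeR, and 0.00112 in DESeq2). The other 5 were the insulin-responsive glucose transporter Slc2a4 (0.71), the glycogen phosphorylase kinase subunit Phka1 (0.78), hexokinase Hk2 (1.15), lactate dehydrogenase Ldhb (0.76) and phosphofructokinase Pfkm (0.39). Among 37 genes of fatty acid use and PPAR signalling 28 were higher (median 0.16, controls -0.13) with 0 called by either tool, and the median ran from 0.049 to 0.27 over omissions and was 0.25 with the Y-linked term. Nuclear OXPHOS genes had 33 higher and 38 lower (median -0.007), and between controls 3 higher and 68 lower (median -0.115).

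Slow-fibre genes were higher in ZEB1 knockouts for all 17 members (median 0.40, controls 0.044), against 54.3% of all genes tested. No member was called by either tool, and the groups were apart for 2 of the 17, near the background of 13.2%. The median ran from 0.16 to 0.60 over omissions and was 0.17 with the Y-linked term. Myh7, the slow myosin heavy chain, stood at 196, 459.6 and 327 CPM in ZEB1 knockouts and 189, 263 and 172 CPM in ZEB2 knockouts, with 1 ZEB1 pool inside the range of the ZEB2 pools. Fast-fibre genes had 7 higher and 10 lower. Of 36 sarcomere, Z-disc and dystrophin complex genes 21 were higher (58.3%, near the 54.3% of all genes), and DESeq2 called 5 higher and 1 lower (background 3.25% and 3.62%). Their median was 0.117, and -0.214 between controls. Ldb3, a Z-disc protein, stood at 1347, 1685 and 1519 CPM in ZEB1 knockouts and 1024, 1027 and 664 CPM in ZEB2 knockouts (0.75, DESeq2 adjusted p = 0.00913). At the neuromuscular junction 14 of 19 genes were higher (73.7%, against 54.3% of all genes tested). The list median was 0.39, and -0.066 between controls. Between knockouts it ran from 0.17 to 0.52 over omissions and was 0.28 with the Y-linked term. The groups were apart for 3 higher and 3 lower members (background 13.2% and 14.4%). DESeq2 called Colq (1.02), which anchors acetylcholinesterase, and Dok7 (1.08), an activator of the synaptic kinase MuSK, both higher (background 3.25%). Musk itself gave -2.04 without passing either tool (adjusted p = 0.212 in edgeR, and 0.144 in DESeq2).

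**Figure D4:**
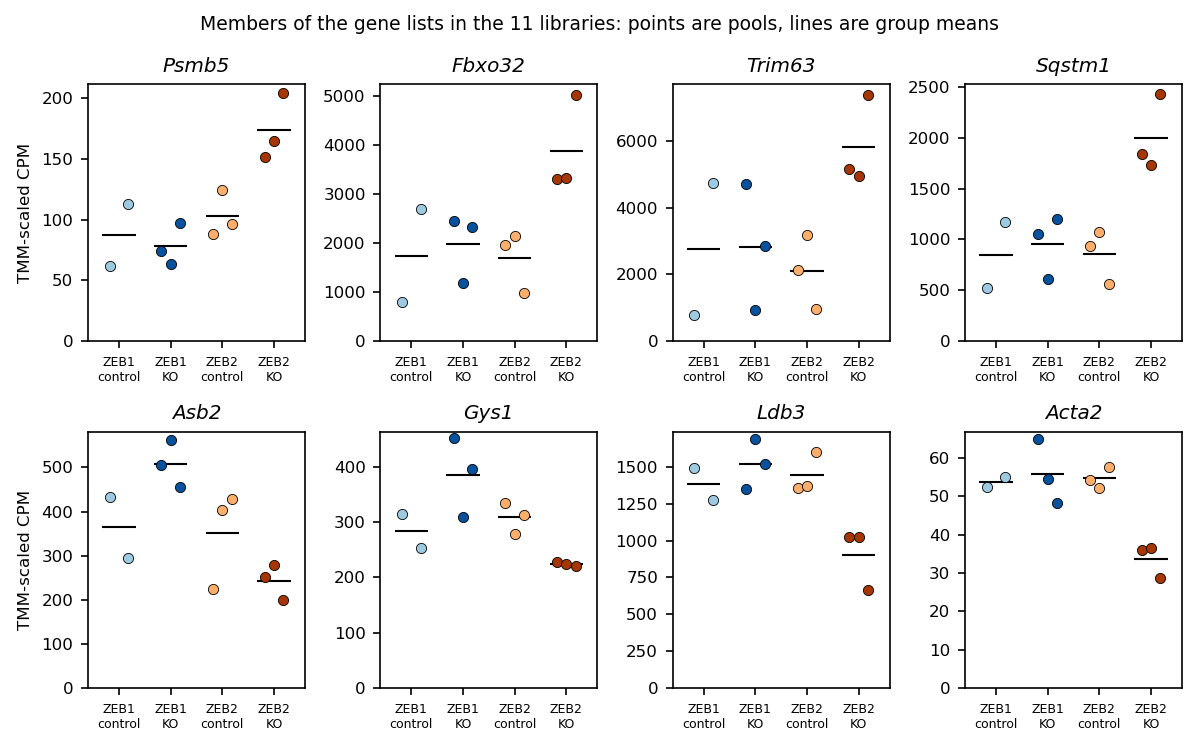
TMM-scaled CPM of 8 list members in the 11 libraries, 1 panel per gene with its own axis starting at 0; points are pools and lines group means. Psmb5, Fbxo32, Trim63 and Sqstm1 are highest in the 3 ZEB2 knockouts, whereas Gys1, Ldb3 and Acta2 are lowest there and Asb2 is highest in the ZEB1 knockouts.

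Epithelial genes that ZEB factors repress were split. Of 34 listed genes 18 were tested, 10 higher and 8 lower in ZEB1 knockouts (55.6% higher, near the 54.3% of all genes tested). Their median was 0.48, against -0.018 between controls. Spint2 was called by edgeR (background 0.149% higher). DESeq2 also called Marveld2, Llgl2 and Patj higher and none lower (background 3.25% and 3.62%). Marveld2, tricellulin of tight junctions, stood at 2.69, 3.28 and 1.36 CPM in ZEB1 knockouts and 0.956, 0.437 and 0.282 CPM in ZEB2 knockouts (log2 difference 2.14, SE 0.47, edgeR adjusted p = 0.112). Llgl2, a polarity protein, gave 0.72 and Patj, a tight-junction scaffold, 0.82. Crb3, another polarity protein, stood at 1.62, 0.740 and 0.958 CPM in ZEB1 knockouts and 0.179, 0.230 and 0.0282 CPM in ZEB2 knockouts (log2 difference 2.87, SE 0.62, edgeR adjusted p = 0.108), and also passed the filter on low counts only through the ZEB1 knockouts. Cdh1, which encodes E-cadherin, overlapped at 0.942, 0.644 and 0.232 CPM in ZEB1 knockouts and 0.388, 0.161 and 0.394 CPM in ZEB2 knockouts, and the keratins Krt8 (-1.69) and Krt19 (-0.97) were lower without passing the test. The list median ran from 0.21 to 0.74 over omissions and was 0.073 with the Y-linked term.

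Among other repressors of this class, Snai3, a member of the Snail family, stood at 52.5, 13.97 and 28.6 CPM in ZEB1 knockouts and 10.4, 9.76 and 7.80 CPM in ZEB2 knockouts. Its lowest ZEB1 pool was above every ZEB2 pool, and the difference was 1.76 (SE 0.39, adjusted p = 0.113 in edgeR, and 0.000880 in DESeq2). The difference between controls was -0.51 with an SE of 0.44.

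Markers of some other cells in the muscle also moved with the comparison, and their part in the gene differences above was not tested. Endothelial markers did not, with a median of 0.043 against 0.046 over all genes tested. Fibro-adipogenic progenitor markers had a median of 0.19. Their sums overlapped, at 2192, 2571 and 1847 CPM in ZEB1 knockouts and 2134, 2035 and 1925 CPM in ZEB2 knockouts. All 18 macrophage markers were higher in ZEB1 knockouts (median 0.64, controls 0.20), with summed levels of 212, 225 and 148 CPM in ZEB1 knockouts and 133, 131 and 120.5 CPM in ZEB2 knockouts. These sums did not overlap, and DESeq2 called 3 members higher (background 3.25%) while edgeR called none. The macrophage median was 0.33 with the Y-linked term. Adipocyte markers were higher for all 13 tested (median 0.43, controls -0.30), but their sums overlapped, at 3021, 4034 and 1603 CPM in ZEB1 knockouts and 2694, 2187 and 1536 CPM in ZEB2 knockouts. The adipocyte median ran from 0.13 to 0.81 over omissions and was 0.089 with the Y-linked term. Sums of smooth muscle and pericyte markers overlapped, at 3604, 2987 and 3408 CPM in ZEB1 knockouts and 3338, 3329 and 3586 CPM in ZEB2 knockouts. Of these 13 markers 12 were higher (median 0.21, controls -0.125). Among them was Acta2, smooth muscle actin, at 64.9, 54.4 and 48.1 CPM in ZEB1 knockouts and 35.9, 36.6 and 28.6 CPM in ZEB2 knockouts (0.73, DESeq2 adjusted p = 0.00193). Schwann cell markers were higher for 12 of 12 (median 0.25) and collagen and matrix genes for 36 of 42 (median 0.26), with controls of both lists leaning the other way (-0.12 and -0.19). The Schwann cell median changed sign over omissions of 1 library (-0.052 to 0.54) and with the Y-linked term (-0.029). The collagen and matrix median ran from 0.13 to 0.42 over omissions and was 0.072 with that term. Sums of both lists overlapped. Schwann cell sums were 329, 273 and 100.5 CPM in ZEB1 knockouts and 275, 171 and 177 CPM in ZEB2 knockouts. Collagen and matrix sums were 1969, 2078 and 1806 CPM in ZEB1 knockouts and 1782, 1829 and 1471 CPM in ZEB2 knockouts. Erythroid markers were lower for 6 of 7, at sums of 909, 693 and 1236 CPM in ZEB1 knockouts and 1134, 1429 and 1416 CPM in ZEB2 knockouts, which overlapped. Between controls 7 of 7 were lower in the ZEB1 line (median -0.385, against -0.297 between knockouts).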

How the data were processed

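Per the labels' protocols, libraries came from total RNA of gastrocnemius by a TruSeq stranded mRNA kit. The authors deposited whole-number expected counts (estimated counts per gene), not normalized. The submitters' processing notes name STAR, RSEM and DESeq2, without versions, and the build GRCm38. Other settings: not given in the sources used here. RSEM divides ambiguous reads by a model, which leaves near-identical and overlapping genes uncertain. Groups follow titles and genotypes, although another label field adds the word control to the knockouts.

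Counts were tested in edgeR 4.0.16 under R 4.3.3 (filterByExpr, minimum count 10 and total 15, TMM, robust quasi-likelihood fit of 4 group means over 11 libraries, Benjamini-Hochberg threshold 0.05), leaving 15416 of 55385 genes with 99.96% of counts. The SE was taken as the size of the log2 difference over the root of its F statistic. Alternatives used DESeq2 1.42.0, limma 3.58.1 (voom), other scalings and filters, a replicate block, a Y-linked covariate and omission of each library. On data simulated for the comparison between knockouts over 15416 genes, the test recovered 95% of genes changed by 2 on the log2 scale and 56% of those changed by 1. The changed genes were drawn without those of low mean level, such as Klc3 and Elmo3. Counts were drawn independently around a mean that was otherwise the same in all groups. Variation that the genes of a pool share was thus not simulated, and the rates do not cover it. Coordinates came from GENCODE M21, and promoters from RefSeq.

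The comparison, the gene lists and the tests were chosen with earlier results of these data known. Named genes were Zeb1, Zeb2, the 14 per direction with the smallest p between knockouts (mean of at least 1 CPM, no unnamed models or pseudogenes), the 5 per direction for the other contrasts, and up to 4 or the best-known members of each list. Klc3, Shisa2, 2310039H08Rik and the unnamed gene models were added because they were called. A named list member is not reported here.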

Additional observations from a re-analysis of the deposited data

How the results depend on the processing

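The 29 calls between knockouts became 895 with DESeq2 (28 of them shared), 109 without a low-count filter, 46 with the knockout groups alone (22 shared) and 8 with the Y-linked covariate (7 shared). With the replicate number as a block there were 16 (14 shared). Numbers did not pair the samples (correlations of same-numbered knockouts -0.147, 0.266 and 0.116). Leaving out 1 library gave 2 to 55 calls, with 2 without ZEB2_KO 1, 4 without ZEB2_KO 2 or ZEB2_KO 3, 17 without ZEB1_KO 1, 19 without ZEB1_KO 3 or ZEB2_control 2, 55 without ZEB1_control 2 and 52 without ZEB1_control 3. The 3 calls between controls became 16 with DESeq2, 5 with RLE scaling, 7 without a filter, 1 with the block and 1 to 5 over omissions. The 0 calls for the difference of differences became 17 with DESeq2, 2 without a filter and 0 to 3 over omissions (2 without ZEB1_control 2, 3 without ZEB1_KO 2). The median over all genes between knockouts was 0.046 with TMM, 0.024 with RLE and 0.145 with upper-quartile scaling. No result that was called changed sign under any alternative. With 3 pools a side an exact permutation test of a single gene cannot go below p = 0.1, so the calls rest on the spread shared across genes.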

Other observations

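Chromosome 6 held 6 of the 29 genes called between knockouts (20.7%) and 5.19% of genes tested. In the stretch from 48 to 52 Mb, 4 of 39 tested genes were called (Gm7887, Gimap6, Osbpl3 and Snx10), and in that from 84 to 94 Mb 2 of 101 (Kbtbd12 and Gm15737). In the first stretch the lines lay apart in the same direction both with and without Cre for 5 of 39 genes (12.8%), and in the other for 6 of 101 (5.94%), against 2.37% of all genes tested. The median absolute log2 difference between floxed controls was 0.274 in the first stretch and 0.166 in the other, against 0.170 over all genes. These stretches were chosen after the positions of the called genes were seen, and no test was made.

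Immediate-early genes, which respond within minutes to stimulation or handling, were higher in the ZEB1 line for 16 of 23 between knockouts (median 0.44, and 0.13 with the Y-linked term) and for 21 of 23 between controls (median 0.69). Interferon response and antigen presentation genes were higher in ZEB1 knockouts for 25 of 32 (median 0.31, and -0.026 with the Y-linked term), with 0 members called by edgeR or DESeq2. Between controls 23 of 32 were higher in the ZEB1 line (median 0.12). Neutrophil markers were at the limit of detection, with 5 of 10 tested and summed levels of 7.53, 2.51 and 2.29 CPM in ZEB1 knockouts and 2.66, 1.86 and 1.52 CPM in ZEB2 knockouts. Their median was 0.985 between knockouts (-0.001 to 1.31 over omissions of 1 library) and 0.406 between controls. Tendon markers, lower in the ZEB1 line for 10 of 12 between controls (median -0.84), were lower for 7 of 12 between knockouts (median -0.15).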
